A study of Mus musculus with 16 samples.

Results

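The genes described here encode the intraflagellar transport (IFT) particles and the BBSome, the machines that carry cargo along the primary cilium. They were chosen by symbol among the protein-coding RefSeq genes: every symbol that begins with Ift or Bbs and a number, and Mkks, Ttc8, Arl6, Wdr19, Wdr35, Ttc21b, Traf3ip1, Cluap1, Dync2h1 and Dync2li1. This gave 32 genes of 21883. The set was proposed with the E2f4 summits and mark coverage of these lists already known, so both are given as a description, with no test.

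Binding of E2f4 and the marks H3K4me2 and H3K27ac were mapped by chromatin immunoprecipitation and sequencing (ChIP-seq) in livers of mice at postnatal day 90, on a mixed C57/B6 and 129 background, 40 h after most of the liver had been removed. All groups carried floxed alleles of Arid1a, whose product belongs to the SWI/SNF complex that moves nucleosomes. WT stands for Arid1a Fl/Fl and KO for Arid1a Fl/Fl; Alb-cre, in which Cre is driven by the albumin promoter and acts in hepatocytes. It is also known to recombine in cholangiocytes, which arise from the same precursors, and other liver cells are not expected to lose Arid1a. E2f4 had 2 libraries per genotype and each mark 1 library per genotype, and each was read here from its deposited peak list, which holds no read numbers. The labels do not say whether libraries came from separate animals. The 8 input samples were not used here.

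The primary cilium is a microtubule-based antenna that resting cells build on a centriole and take down before division. IFT-B particles move outward with kinesin-2, IFT-A particles return with the cytoplasmic dynein-2 motor, and the BBSome, a coat-like complex recruited by the GTPase Arl6, helps to move membrane proteins in and out. RFX transcription factors are known regulators of cilium genes and bind the X-box, in which a short motif occurs as an inverted pair. E2f4 is best known at cell cycle promoters, where it acts with the RB-related pocket proteins. In liver, primary cilia are known on cholangiocytes, and hepatocytes are generally held to lack them.

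Start sites were taken from RefSeq promoter entries of assembly GRCm38.p6, which shares its coordinates with build mm10 of the peak lists. Of the 32 genes, 28 had an entry. For Ift80, Ift81, Ift122 and Dync2li1 the annotated gene end with more H3K4me2 was used instead. An E2f4 summit, the highest point of a called peak, counted when it lay within 1000 bp of a start. Where a list has no peak, binding below the calling limit cannot be told apart from no binding.

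The lengths of the E2f4 lists differed (WT replicate 1 1791 peaks, WT replicate 2 1058, KO replicate 1 287, KO replicate 2 683), so every count below falls with the length of the list as well. The mark lists held 66832 (WT) and 73042 (KO) regions for H3K4me2 and 63321 (WT) and 54652 (KO) for H3K27ac. Hepatocyte markers (Alb, Apoa1, Ttr, Hnf4a and Cyp2e1) carried both marks in every list. Of the 5 cholangiocyte markers, Krt7 and Krt19 had no mark in any list, and the summed H3K4me2 length of all 5 was 6007 bp in WT and 5056 bp in KO. The 4 lymphocyte markers summed to 15067 bp of H3K4me2 in WT and 1704 bp in KO, with 3 of the 4 at 0 in KO, the 5 endothelial markers to 18483 and 27744 bp, the 3 macrophage markers to 11361 and 9613 bp and the 3 stellate cell markers to 3769 and 10178 bp. Of these lists, the markers of endothelium, macrophages and stellate cells were at 0 in no list. H3K27ac summed to 40314 bp in WT and 38794 bp in KO for the hepatocyte markers, 1864 and 0 bp for the cholangiocyte, 2740 and 4019 bp for the lymphocyte, 32209 and 26132 bp for the endothelial, 16225 and 13376 bp for the macrophage and 9209 and 3965 bp for the stellate cell markers. The summed marks thus went opposite ways at the lymphocyte, endothelial and stellate cell lists. At the lymphocyte list the H3K27ac rise came from Ptprc alone (2591 bp in WT and 4019 bp in KO). Cd79b went from 149 to 0 bp, and Cd2 and Cd3e had no H3K27ac in either genotype. The part of these other cell types in the lengths given below was not tested.

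The sequences below are shown because E2f4 peaks fell on them. They are RefSeq promoter windows of 300 bases, from 250 bases before the start to 50 bases from the start onward, written 5′ to 3′ on the strand of the gene named, in build GRCm38.p6. Capitals mark E2F words (TTTGGCGC, TTTCGCGC, TTTCCCGC, TTTGCCGC or the longer form GGCGGGAA) and RFX motifs (GTTGCC or GTTACC), each also read on the other strand. The window of Mbd4 stands for Ift122, its head-to-head neighbour, whose start lies in it 38 bp from that of Mbd4.

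Ift27 (chr15:78174032-78174331, minus strand): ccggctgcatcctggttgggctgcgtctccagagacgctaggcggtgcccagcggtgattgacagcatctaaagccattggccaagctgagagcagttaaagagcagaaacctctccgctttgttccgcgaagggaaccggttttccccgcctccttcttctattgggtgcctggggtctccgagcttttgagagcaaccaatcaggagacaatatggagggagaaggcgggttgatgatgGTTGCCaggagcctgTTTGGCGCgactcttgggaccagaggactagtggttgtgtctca
Mbd4 (chr6:115853292-115853591, minus strand): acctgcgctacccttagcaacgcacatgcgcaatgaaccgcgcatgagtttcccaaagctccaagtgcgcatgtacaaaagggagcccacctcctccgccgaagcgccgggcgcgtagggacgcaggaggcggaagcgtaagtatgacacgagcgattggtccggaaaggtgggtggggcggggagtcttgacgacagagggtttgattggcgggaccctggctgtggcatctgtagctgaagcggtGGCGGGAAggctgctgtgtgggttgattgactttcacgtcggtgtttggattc
Ift140 (chr17:25015836-25016135, plus strand): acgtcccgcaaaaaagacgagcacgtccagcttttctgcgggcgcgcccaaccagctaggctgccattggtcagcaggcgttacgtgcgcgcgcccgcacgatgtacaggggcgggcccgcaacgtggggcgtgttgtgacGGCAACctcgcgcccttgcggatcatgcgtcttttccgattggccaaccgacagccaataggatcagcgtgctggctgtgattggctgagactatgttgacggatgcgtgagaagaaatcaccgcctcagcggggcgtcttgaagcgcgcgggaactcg
Ift74 (chr4:94614241-94614540, plus strand): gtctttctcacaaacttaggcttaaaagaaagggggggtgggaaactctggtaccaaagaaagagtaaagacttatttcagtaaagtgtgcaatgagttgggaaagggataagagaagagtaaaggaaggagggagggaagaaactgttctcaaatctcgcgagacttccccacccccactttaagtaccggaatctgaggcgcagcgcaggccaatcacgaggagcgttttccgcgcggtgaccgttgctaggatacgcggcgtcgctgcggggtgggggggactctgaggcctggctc

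Most of the 32 genes had no E2f4 summit at their start. In WT replicate 1 a summit was called at 6 of them (18.8%), in WT replicate 2 at 5 (15.6%), in KO replicate 1 at 2 (6.25%) and in KO replicate 2 at 3 (9.38%). Over all 21883 genes the shares were 6.66% and 4.71% in WT and 1.14% and 3.23% in KO. Both WT libraries held a summit at the same 5 genes, Ift27, Ift80, Ift122, Ift140 and Mkks (15.6% of the set, against 3.83% of all genes). Of these 5, Ift27 and Ift80 had a summit in both KO libraries, Ift122 in KO replicate 2 only, and Ift140 and Mkks in neither. The 3 of 5 genes with a KO summit make 60.0%, beside 71.6% of all 839 genes called in both WT replicates. Ift74 had a summit at its annotated start in WT replicate 1 alone.

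**Figure D1:**
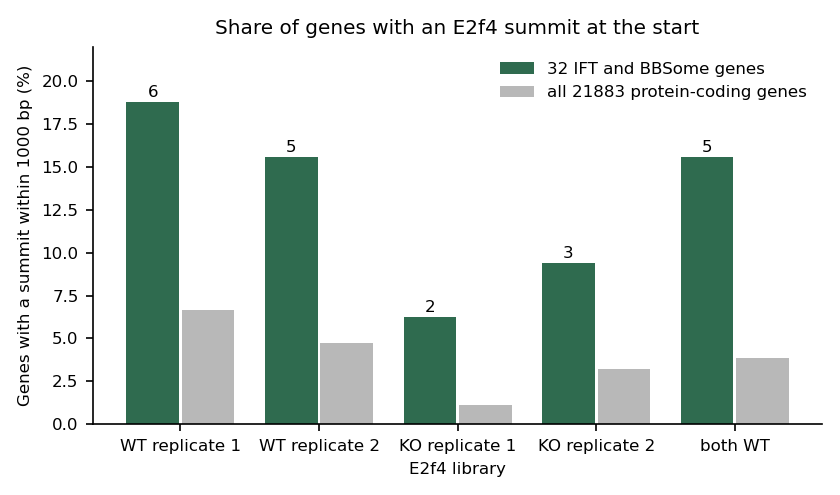
Share of genes with an E2f4 summit within 1000 bp of the start (y axis, percent), for each E2f4 library and for both WT libraries together, in the 32 IFT and BBSome genes (dark bars, with the number of genes above) and in all 21883 protein-coding genes (light bars). The dark bars reach 18.8, 15.6, 6.25, 9.38 and 15.6%, beside 6.66, 4.71, 1.14, 3.23 and 3.83%.

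By machine, summits in both WT libraries fell on 2 of 13 IFT-B genes, 2 of 6 IFT-A genes, neither dynein-2 gene, none of the 7 BBSome subunit genes, and 1 of the 4 genes for Arl6 and the chaperonin-like assembly factors. The remaining 26 genes lay far from any summit. The nearest were Ift20, with a summit 14451 bp away in WT replicate 1, and Cluap1, at 24446 bp in the same library. None of the 26 had a summit within 10000 bp in any of the 4 lists. Among the genes with a summit, the farthest one inside the window lay 732 bp from the start, at Mkks.

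Ift27 encodes a Rab-like GTPase of the IFT-B core, needed for BBSome exit from the cilium, and its site was called in all 4 libraries (chromosome 15, start at 78174081). The summits lay 255 and 229 bp upstream in WT and 172 and 228 bp upstream in KO. Ordered by −log10 q-value, the WT peaks ranked 432 of 1791 and 305 of 1058, and the KO peaks 102 of 287 and 366 of 683. The authors' −log10 q-values were 19.9 and 35.4 for the WT peaks and 12.8 and 16.7 for the KO peaks. These values, the authors' fold over background given below and the rank belong to a peak within its own list, and show no change between lists. All 4 peaks overlapped, the most distant summits being 83 bp apart. Ift27 was the only gene of the 5 with no other coding start within 1000 bp. Its window above holds the E2F word TTTGGCGC, beginning 6 bases after the start, and the summits lay 264, 238, 181 and 237 bp from the middle of that word, in the order just used.

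Ift80, a peripheral IFT-B subunit gene on chromosome 3, shares its promoter with Smc4, which encodes a condensin core subunit that compacts mitotic chromosomes. The 2 genes lie head to head, their annotated ends 58 bp apart (69004680 and 69004738). Summits lay 258, 257, 259 and 235 bp outside Ift80 in WT replicates 1 and 2 and KO replicates 1 and 2. They lay 200, 199, 201 and 177 bp inside Smc4, so that each was nearer to the end of Smc4. The WT ranks were 259 and 166, the KO ranks 169 and 205, and the folds were 16.8, 27.2, 7.69 and 12.3. Among summits within 1000 bp of the starts used here, this was the best ranked site of the set in both WT libraries and in KO replicate 2. The peak in WT replicate 1 spanned 711 bp (69004550 to 69005260) and reached both gene ends, and which gene the site belongs to cannot be told apart here.

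Ift122, an IFT-A subunit gene on chromosome 6, lies head to head with Mbd4, which encodes a DNA glycosylase for mismatches at methylated CpG. Their starts are 38 bp apart (115853379 and 115853341). Summits lay 26 and 32 bp before the Ift122 start in WT and 19 bp before it in KO replicate 2, and 12, 6 and 19 bp from the Mbd4 start. The ranks were 475 and 355 in WT and 557 of 683 in KO replicate 2, and KO replicate 1 had no peak there. The word GGCGGGAA of the Mbd4 window lay 12, 6 and 19 bp from these summits, measured to its middle. It was the only E2F word in these 4 windows that a summit met within 50 bp.

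Ift140, an IFT-A subunit gene on chromosome 17, carried WT summits 34 and 4 bp before its start (25016086), with ranks of 546 and 488 and folds of 9.90 and 11.1, and none in KO. The 2 WT peaks shared 194 bp. Its neighbour Cramp1l has its annotated start 856 bp away in the opposite direction. The summits lay 822 and 852 bp from that start, so by annotated starts they were nearer to Ift140. The gene model of Cramp1l reaches farther, to 25015840. The WT replicate 1 peak (25015745 to 25016194) covered both that end and the Ift140 start, and which gene the site belongs to cannot be told apart here. The Ift140 window holds no E2F word. Its RFX motif, read on the other strand, lay 72 and 102 bp from the summits.

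Mkks encodes a chaperonin-like protein that helps to assemble the BBSome, and it shares a promoter on chromosome 2 with Slx4ip, whose product binds the SLX4 nuclease scaffold. Their starts are 188 bp apart and the genes overlap (136891406 for Mkks, 136891218 for Slx4ip). WT replicate 1 held 2 peaks there. The stronger one lay 732 bp upstream of Mkks (rank 273, fold 16.6) and overlapped no peak of another list. The weaker one lay 547 bp downstream (136890657 to 136890984, rank 763, fold 7.40) and overlapped the single peak of WT replicate 2 (136890760 to 136890982, rank 295, fold 17.0) over 223 bp, with summits 27 bp apart. The site common to both WT libraries was therefore the downstream one, 359 and 332 bp from the Slx4ip start. No peak touched the Mkks window of 300 bases, and no KO list had a peak within 1000 bp. The Slx4ip window, which holds no E2F word, was met by the peaks of both WT replicates but by no summit.

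Ift74 encodes a core IFT-B subunit that binds tubulin together with Ift81, and its E2f4 sites depend on which start is taken. At the annotated start (chromosome 4, 94614491) only WT replicate 1 had a summit, 78 bp upstream, ranked 847 with a fold of 7.46. The gene model in the RefSeq table begins 11225 bp farther upstream, where it faces Plaa, an activator of phospholipase. Near that outer end summits were called in WT replicates 1 and 2 and KO replicate 2, at 221, 262 and 231 bp from it, ranked 192, 192 and 320. With that end in place of the annotated start, Ift74 would join the genes called in both WT replicates and in a KO replicate.

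**Figure D2:**
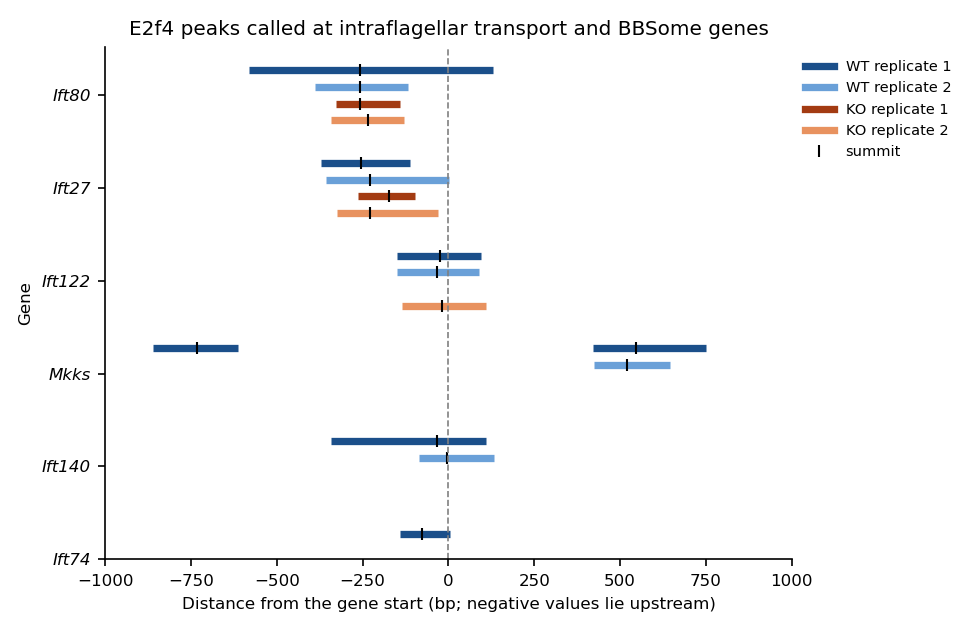
E2f4 peaks at the 6 genes with a summit, as distance from the gene start in bp (x axis, negative values upstream), with 1 row of bars per library and gene and a tick at each summit. The 4 peaks of Ift27 and of Ift80 lie over each other, whereas the 2 peaks of Mkks in WT replicate 1 are 1279 bp apart from summit to summit.

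Shared promoters were frequent where E2f4 was called. Of the 32 genes, 8 (25.0%) had another coding start within 1000 bp, always head to head: Ift80 with Smc4, Ift122 with Mbd4, Ift140 with Cramp1l, Mkks with Slx4ip, Ift20 with Tnfaip1, Bbs12 with Cetn4, Dync2h1 with Dcun1d5 and Cluap1 with 1700037C18Rik. In all protein-coding genes the share was 11.0%, and in those with H3K4me2 within 1000 bp, which all 32 genes had, it was 15.4%. Summits in both WT libraries fell on 4 of these 8 genes and on 1 of the other 24 (4.17%). Over all genes the same shares were 11.2% with a neighbour and 2.92% without, and among genes with H3K4me2 within 1000 bp 11.8% and 4.48%. A gene pair with 1 site counts for both genes in these shares.

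All 17 E2f4 summits at these genes (7 and 5 in WT, 2 and 3 in KO) lay inside called regions of H3K4me2 and of H3K27ac in both genotypes. The choice of summits favoured this, since H3K4me2 covered every start and only summits within 1000 bp of a start were taken. Whole lists were not limited to summits near a start. Their share of summits inside all 4 mark lists was 70.3% and 79.2% in WT replicates 1 and 2. It was 61.3% and 79.8% in KO replicates 1 and 2. The 5 genes called in both WT replicates had longer marks than the 26 genes with none, with a median H3K4me2 length in WT of 4195 bp (2241 to 5210) against 1744.5 bp (729 to 5000). All of these windows except that of Ift27 hold another coding gene as well. In KO the H3K4me2 medians were 3715 and 1757 bp, and for H3K27ac they were 2668 and 1089 bp in WT and 2860 and 1135 bp in KO. Over all genes this order did not hold throughout. H3K4me2 medians with and without a summit were 3047 and 2783 bp in WT and 2957 and 2985 bp in KO, and those of H3K27ac 2065 and 2478 bp in WT and 2371.5 and 2421 bp in KO.

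The promoter windows of the 28 genes with an entry held RFX motifs more often than those of all genes. RFX motifs have 6 bases and E2F words 8, so their shares are not compared with each other. An RFX motif was found in 13 of the 28 (46.4%), against 18.3% of the windows of all 17491 protein-coding genes in the table and 17.8% of those with H3K4me2 within 1000 bp. The X-box, the known pair of such motifs, was found in 3 (10.7%, against 3.58% of all genes), those of Ift57, Bbs1 and Bbs7. An E2F word of the TTT form was found in 1 of the 28, that of Ift27 (3.57%, against 2.94% of all genes and 19.8% of the 696 genes in the table that had WT summits in both replicates). GGCGGGAA was found in none (0%, against 2.94% and 14.4%). The CHR, an element of cell cycle promoters written TTTGAA or TTCGAA, was found in Ttc8 alone (3.57% against 18.2%), and the NRF1 word GCGCATGC in none (0%, against 3.60%). All words were read on both strands. The 2 E2F forms can overlap each other, and a match or its absence says nothing of binding. The windows had a median GC content of 58.0% (48.3 to 71.3) and 21 CG pairs, beside 56.3% and 13 for all genes and 60.7% and 20 for genes with H3K4me2.

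The stretches below show the RFX motifs of 9 genes in capitals, with 6 bases before and 14 after, on the strand that spells the motif, so that the partner motif of an X-box can be seen where there is one.

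Ift57, upstream site (chr16:49699201-49699226, plus strand): ggtctgGTTGCCgtggtgaccggctg
Ift57, downstream site (chr16:49699228-49699253, plus strand): cctgcgGTTGCCtggtaacggtgggg
Bbs1 (chr19:4906607-4906632, minus strand): gagctgGTTGCCaaggcgacgcctgg
Bbs7 (chr3:36613491-36613516, minus strand): gccccgGTTGCCttggaaaccggcca
Ift172 (chr5:31291095-31291120, minus strand): actcacGTTGCCtgtgcgtcagcggt
Ift88 (chr14:57424078-57424103, minus strand): ccagccGTTGCCaggcgcgactccaa
Traf3ip1 (chr1:91494583-91494608, plus strand): gcgtccGTTGCCaaggccgcgcggcc
Dync2h1 (chr9:7177011-7177036, plus strand): tcagcaGTTGCCaagctccgtcgcta
Ift27 (chr15:78174071-78174096, minus strand): atgatgGTTGCCaggagcctgtttgg
Ift140 (chr17:25015963-25015988, minus strand): cgcgagGTTGCCgtcacaacacgccc

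Each of the first 4 begins an X-box and the other 6 do not. At Ift57, an IFT-B gene, the sites lay 87 and 60 bases before the start, and at Ift172 the motif began on the start base itself. At Bbs1 and Bbs7, both BBSome subunit genes, it began 1 base after and 121 bases before the start. None of the 3 genes with an X-box had an E2f4 summit, and only 4 of the 28 genes with a window had one in any library. Among the 696 genes in the table with WT summits in both replicates, 4.89% held an X-box, against 3.58% of all genes.

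H3K4me2 covered the start of all 32 genes in both genotypes, and H3K27ac covered 26 starts in WT and 28 in KO. For Ift80, Ift81, Ift122 and Dync2li1 the start was the gene end with more H3K4me2, so H3K4me2 there was favoured by that choice. The same holds for every other coding gene without a promoter entry. Among all protein-coding genes H3K4me2 covered 60.1% of starts in WT and 61.3% in KO, while H3K27ac covered 10553 of the 21883 starts in WT and 10947 in KO. H3K27ac lay on the start in KO only at Ift57 and Ift81. It missed the start in both genotypes at Traf3ip1, Dync2h1, Dync2li1 and Bbs1. Within 5000 bp of the start, the width used for all lengths below, Bbs1 had no H3K27ac in either genotype, Dync2h1 had none in WT and 467 bp in KO, and Dync2li1 had 477 bp in WT and none in KO. These 2 dynein-2 genes thus had little of this mark, in opposite genotypes, and each value rests on 1 library. Other dynein-2 subunit genes had more, with 2276 bp in WT and 1385 bp in KO at Wdr34, 901 and 1099 bp at Wdr60 and 815 and 845 bp at Tctex1d2. At Dync2h1 H3K4me2 covered 1035 bp in WT and 931 bp in KO, and at Dync2li1 995 and 999 bp.

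The marks of these genes were short compared with those of other marked genes. The median H3K4me2 length was 1889 bp in WT (729 at Bbs1 to 5210 at Mkks) and 1796 bp in KO (931 at Dync2h1 to 6126 at Ift20), against 2855 and 3040 bp over the 16073 genes with this mark in either genotype. For H3K27ac the medians over the 31 genes with the mark were 1175 bp in WT and 1242 bp in KO, against 2477 and 2447 bp over 13743 genes. In WT a single H3K4me2 region lay in the window of 23 of the 32 genes, and in KO in 20. Median H3K4me2 lengths were 861 bp upstream and 957 bp downstream of the start in WT and 805 and 998.5 bp in KO. The downstream side was the longer one at 18 of the 32 genes in WT and at 22 in KO.

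Between the genotypes most lengths differed by less than 1000 bp. H3K4me2 was longer in KO at 22 genes (68.8%, against 60.2% of all marked genes) and shorter at 10 (31.2%, against 39.5%), with a median difference of 129 bp, the same as the median of 129 bp over all marked genes. H3K27ac was longer at 19 (61.3%, against 52.8%) and shorter at 12 (38.7%, against 46.5%), with a median of 93 bp against 38 bp. Both marks were longer in KO at 12 genes and both shorter at 3, and they went opposite ways at 16. A difference of at least 1000 bp was counted as a call. For H3K4me2, 3 of 32 genes were called longer in KO (9.38%, against 11.7% of all marked genes) and none shorter (0%, against 5.85%). For H3K27ac 1 of 31 was called longer (3.23%, against 11.8%) and 1 shorter (3.23%, against 11.9%). A gene with less than 1000 bp of a mark in WT cannot be called shorter. H3K27ac in WT was shorter here (median 1175 bp, against 2477 bp over all marked genes), so these shares are not on equal terms. With 1 library per genotype none of these differences has a replicate check, and in bulk tissue fewer cells with a mark and less of it per cell cannot be told apart.

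**Figure D3:**
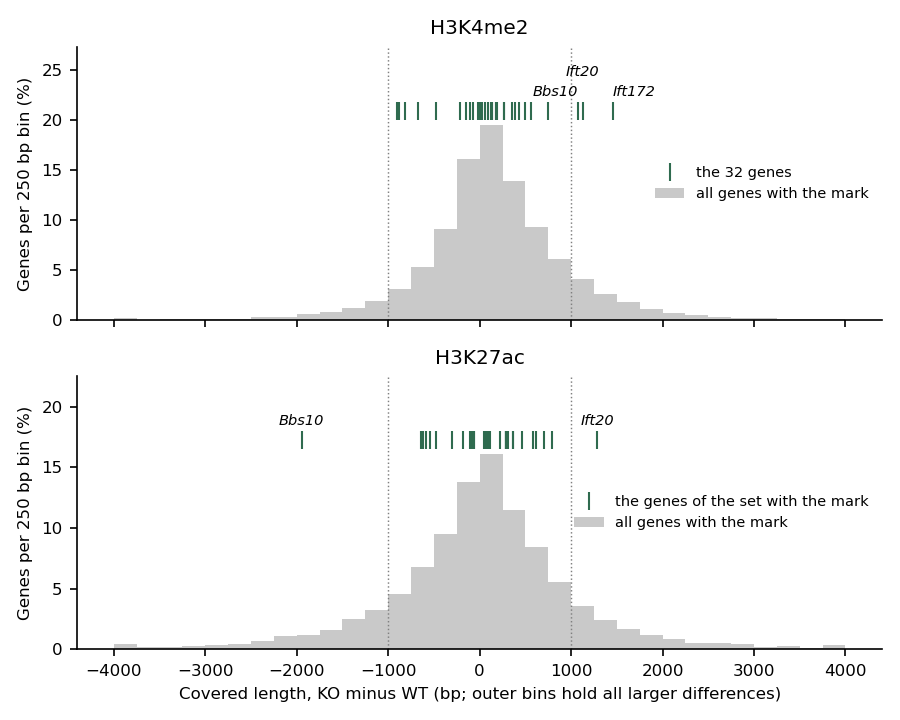
Difference in covered length within 5000 bp of the start, KO minus WT in bp (x axis), for all genes with the mark (bars, percent of genes per bin of 250 bp) and for the IFT and BBSome genes (ticks), with dotted lines at 1000 bp in each direction. Of the ticks, 3 lie beyond the lines for H3K4me2 (Ift172, Ift20, Bbs10) and 2 for H3K27ac (Ift20 and Bbs10).

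Ift172 encodes the largest IFT-B subunit, which acts at the ciliary tip, and had the largest H3K4me2 difference of the set. The mark covered 4448 bp in WT and 5905 bp in KO. In WT a region of 2780 bp over the start was separated from another one upstream, and in KO a single region of 9990 bp ran through. The side upstream of the start rose from 3174 bp to the full 5000 bp, while the downstream side went from 1273 to 904 bp. H3K27ac covered 4638 bp in WT and 5008 bp in KO and remained in 2 regions. The neighbour Fndc4 lies in the same window.

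Ift20 encodes the IFT-B subunit that also sits at the Golgi apparatus, and shares its promoter with Tnfaip1 (starts 101 bp apart). Both marks were longer in KO. H3K4me2 covered 5000 bp in WT and 6126 bp in KO, and H3K27ac 4918 and 6206 bp. The H3K4me2 difference of 1126 bp fell under 1000 bp in other settings, to 320 bp within 10000 bp of the start and to 922 bp with regions of a −log10 q-value of at least 5. The H3K27ac of WT was split into 4 regions, and that of KO into 2, of which the one over the start went from 3278 to 5446 bp.

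Bbs10 encodes a chaperonin-like assembly factor of the BBSome, and its marks went opposite ways. H3K4me2 covered 3121 bp in WT and 4193 bp in KO, whereas H3K27ac covered 5505 bp in WT and 3560 bp in KO. H3K27ac formed 1 region in each genotype and H3K4me2 formed 2. With regions of a −log10 q-value of at least 5 the H3K4me2 difference was 233 bp in place of 1072 bp, while that of H3K27ac remained -1945 bp. The H3K27ac difference lay mostly downstream, with 4156 bp in WT and 2542 bp in KO, and the H3K4me2 difference lay there too, with 2078 and 3195 bp. Osbpl8 is the other coding gene in this window.

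At the genes with an E2f4 summit no mark difference reached 1000 bp. Mkks came nearest, with H3K4me2 of 5210 bp in WT and 4303 bp in KO and H3K27ac of 3442 and 2860 bp. Ift80 had less H3K4me2 in KO (4532 and 3715 bp) and more H3K27ac (2668 and 3285 bp). Ift27 (2477 and 2659 bp of H3K4me2, 1396 and 1683 bp of H3K27ac), Ift122 (2241 and 2504 bp, 1892 and 2117 bp), Ift140 (4195 and 4387 bp, 4716 and 4637 bp) and Ift74 (1583 and 1679 bp, 973 and 1287 bp) differed less. Ift140 had no KO summit, but its WT peaks ranked only 546 and 488. With each E2f4 list limited to its 287 strongest peaks it had no summit in any library, WT included. Whether its summits and its mark lengths are related was not tested.

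**Figure D4:**
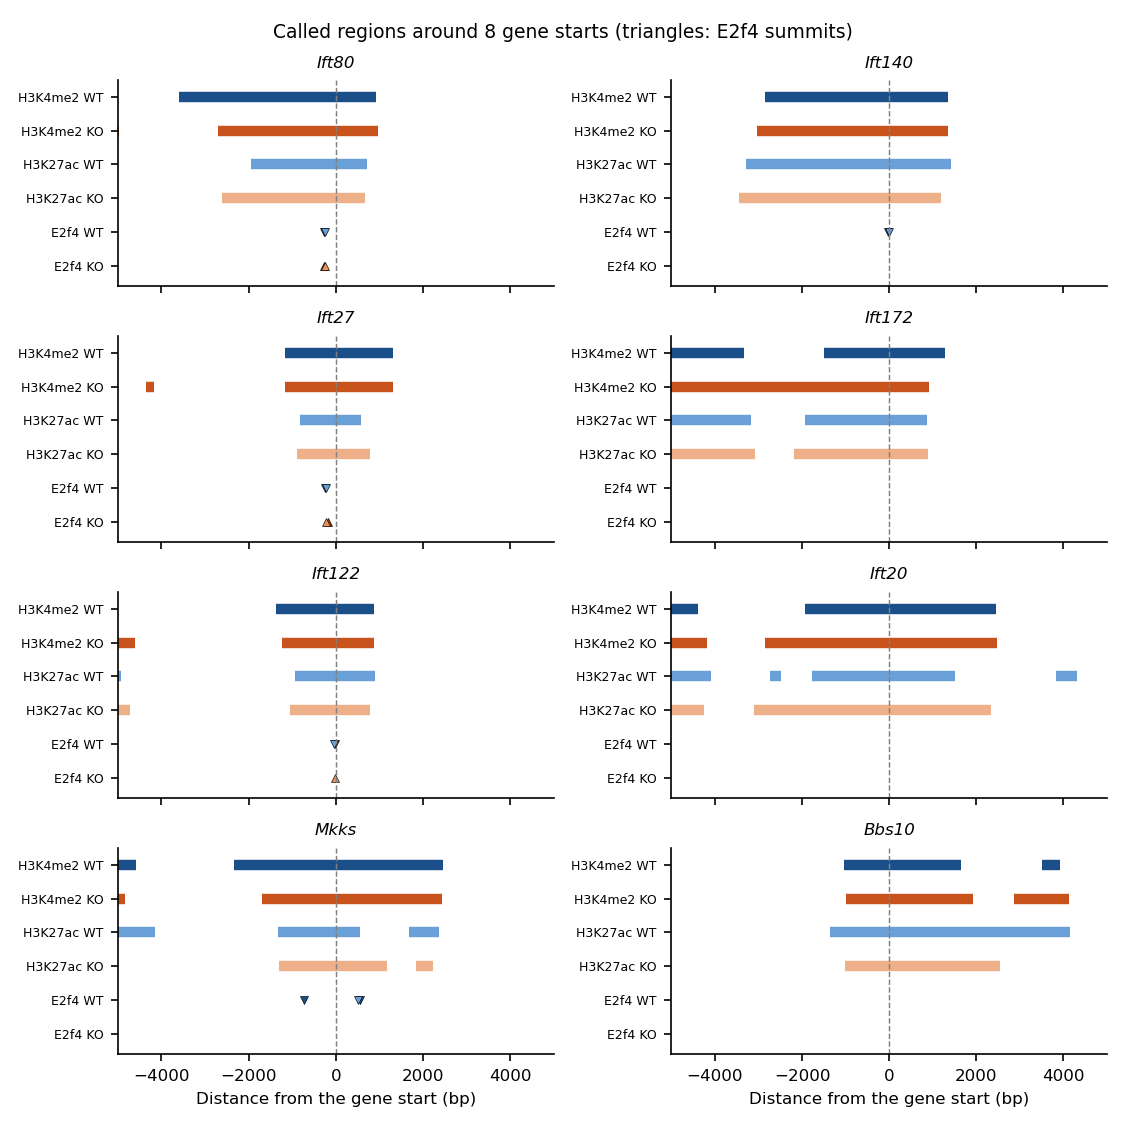
Called regions of H3K4me2 and H3K27ac (bars) and E2f4 summits (triangles) within 5000 bp of the start of 8 genes, as distance from the start in bp (x axis, negative values upstream), 1 row per mark and genotype and 1 row of E2f4 summits per genotype. H3K4me2 upstream of Ift172 is broken in WT and unbroken in KO, and the H3K27ac region of Bbs10 is 5505 bp long in WT and 3560 bp in KO.

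The other genes stayed within 1000 bp for both marks. Among the IFT-B genes the H3K4me2 differences, KO minus WT, were 752 bp at Traf3ip1, a microtubule-binding subunit, 425 bp at Ift81, 382 bp at Ift46, 180 bp at the GTPase gene Ift22, 29 bp at Cluap1, 16 bp at Ift88, -74 bp at Ift52 and -215 bp at Ift57. H3K27ac was longer in KO at 10 of the 13 IFT-B genes, where it was longer at 52.8% of all marked genes, with a median difference of 291 bp against 38 bp, and Ift57 went from 257 to 961 bp. Of the 6 IFT-A genes it was longer at 2, with a median of -68 bp, and Ift43 went from 2274 to 1736 bp. The remaining IFT-A genes Wdr19, Wdr35 and Ttc21b had H3K4me2 differences of -150, 128 and -480 bp. The difference between the complexes was not tested.

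Of the BBSome subunit genes, Bbs4 and Bbs7 had the largest H3K4me2 differences, from 3052 to 2169 bp and from 2334 to 1662 bp. Bbs2, Bbs5, Bbs9 and Ttc8 differed by 130, 136, 58 and -13 bp, and Bbs1 went from 729 to 1079 bp. H3K27ac at Bbs9 covered 1668 bp in WT and 1044 bp in KO, and at Bbs4 2312 and 2382 bp. For Arl6, the GTPase that recruits the BBSome to membranes, H3K4me2 covered 1494 and 1762 bp and H3K27ac 750 and 1033 bp. Bbs12, another chaperonin-like gene, had 2930 and 3429 bp of H3K4me2 and 1175 and 1963 bp of H3K27ac.

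**Figure D5:**
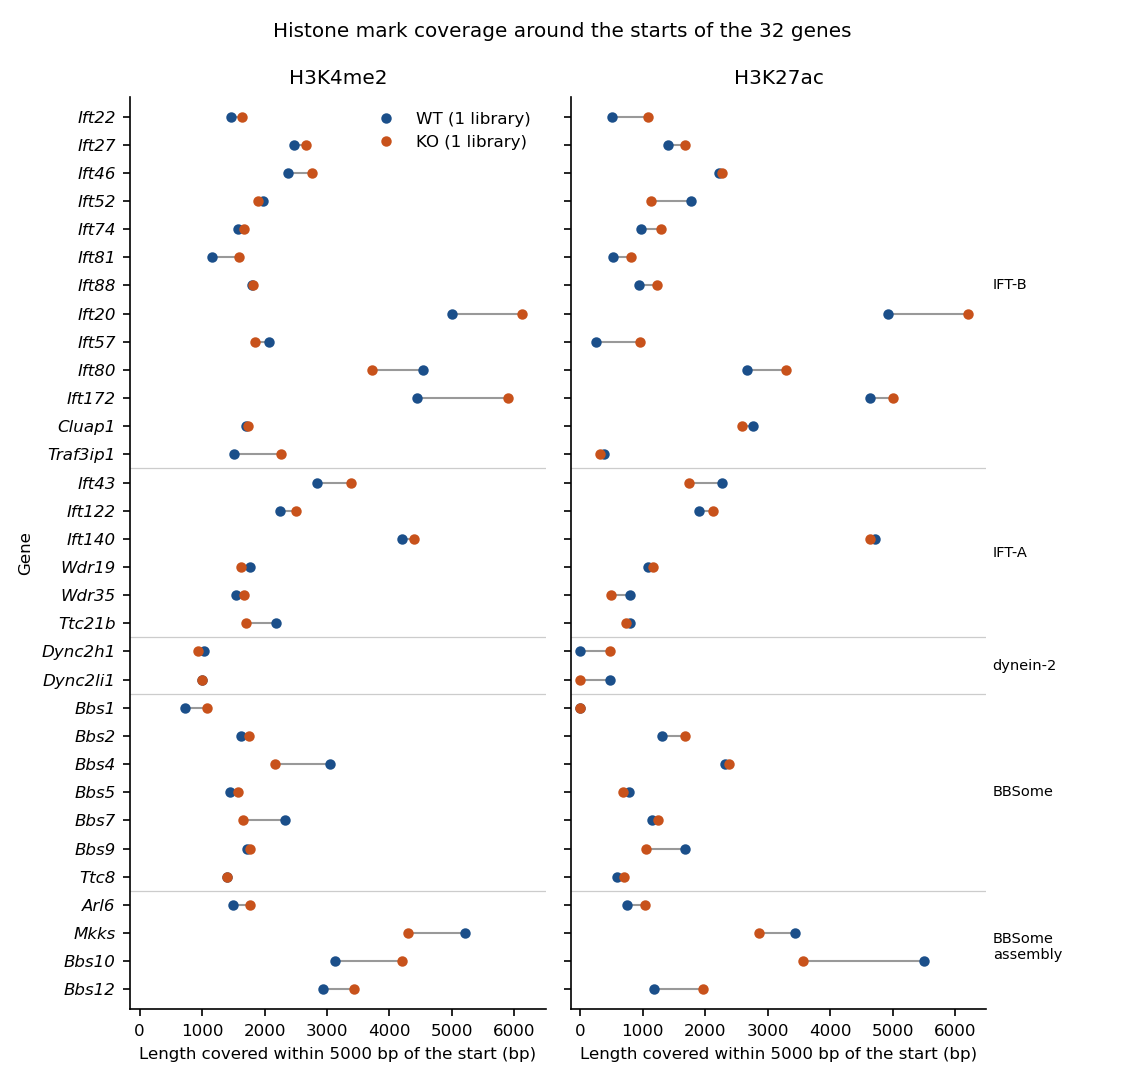
Length covered by H3K4me2 (left) and H3K27ac (right) within 5000 bp of the start in bp (x axis) for each of the 32 genes, grouped by complex, with 1 point for the WT library and 1 for the KO library. Most pairs of points lie within 1000 bp of each other, and those of Ift172 (H3K4me2), Ift20 (both marks) and Bbs10 (both marks) lie farther apart.

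Other genes of the cilium carried E2f4 about as often as genes in general. Of 69 genes in 5 lists of further IFT and motor, transition zone, ciliary membrane, Hedgehog and transcription factor genes, 3 were called in both WT replicates (4.35%, against 3.83% of all genes and 15.6% of the 32 genes), and 2 were called in a KO replicate (2.90%, against 3.26% of all genes). They were Wdr34, an intermediate chain of dynein-2 (ranks 1071 and 708, none in KO), Tmem237 of the transition zone (ranks 458 and 522, and 521 in KO replicate 2) and Rab8a, a GTPase of ciliary membrane traffic (ranks 370 and 624, and 457 in KO replicate 2). None of the 10 Hedgehog genes had a summit in any list. Of the 9 transcription factor genes, Rfx1 and Rfx2 had one in WT replicate 1 only, as did the BBSome subunit gene Bbip1 and Tmem107 of the transition zone, all 4 named after their values were seen. By the same 1000 bp rule, H3K4me2 was longer in KO at 4 of the 67 marked genes among them (5.97%, against 11.7% of all marked genes) and shorter at 6 (8.96%, against 5.85%). Among these 6, Ttc30a1 and Ttc30a2 had identical lengths in every mark list (H3K4me2 3466 bp in WT and 1865 bp in KO). The same regions may thus have been counted for both. H3K27ac was longer at 7 of 63 (11.1%, against 11.8%) and shorter at 4 (6.35%, against 11.9%).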

How the data were processed

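Per the submitters' processing notes, which give no roles, the tools were MACS2 2.0.10.20131216, Bowtie2 2.2.3, HOMER and Picard, and the build was mm10. Whether inputs served as control in peak calling: not given in the sources used here. The authors deposited 1 list per library, with peaks called per library: narrowPeak for E2f4, broadPeak for the marks. The deposited columns hold the fold enrichment of a peak over background (a ratio), its −log10 p-value and −log10 q-value, and a score that was not used. Read depth cannot be seen from them, and intervals that need it were left out.

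Starts were read from the RefSeq promoter table where it had the gene (17491 of 21883 coding genes), otherwise from the gene end with more H3K4me2 within 2000 bp, which can differ from the true start. With several starts, any could carry a summit, and the most upstream one set the 10001 bp window for marks. Regions of a list were merged and their length in the window summed. Whether sites were exonic or intronic was not analysed here. The functions (Python 3.11.15, pandas 2.3.3) were tested on simulated data.

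The gene set, the cilium lists, cell type markers and motifs were chosen with earlier results of these data known; the X-box was added after seeing the single RFX motifs. Named were genes with a summit, with a mark difference of at least 1000 bp, or sharing a start; the other genes were given in ranges or single values. Sequences printed were limited to windows on which a peak fell and to RFX motifs. The Mkks window, on which no peak fell, was left out. So was that of its neighbour Slx4ip, although WT peaks reached into it. The Mbd4 and Ift74 windows and the 9 genes with RFX stretches were chosen after their values were seen.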

Additional observations from a re-analysis of the deposited data

How the results depend on the processing

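No paired analysis was possible because the E2f4 results are counts of genes read from peak lists and come from no test, and the marks have 1 library per genotype. Of the recomputed counts, 77 stayed within 1.5 times the reported one and 28 did not. Leaving out 1 E2f4 library at a time gave 5 to 6 genes for both WT libraries, 2 to 3 for a KO library and 2 to 3 for WT without KO. Over all genes the shares were then 3.83 to 6.66%, 1.14 to 3.26% and 1.1 to 3.72%. The 5 genes with the same site in both WT libraries were 5 under both other overlap rules. With each E2f4 list limited to its 287 strongest peaks, 1 gene (Ift80) was called in both WT replicates (all genes 1.17%). WT without KO fell to 0, and over all genes from 238 to 13 (0.0594%). The WT lists held 2 and 1 (all genes 1.48% and 1.47%) and KO replicate 2 held 1 (1.49%). Within 500 bp, WT without KO fell to 1 gene, since Mkks left (all genes 1.02%). KO replicate 1 fell to 1 gene once peaks needed a −log10 q-value of 10 (all genes 0.64%). With annotated starts only, an alternative chosen after seeing the data, both WT libraries held 3 of 28 genes. A KO library held 1, WT replicate 2 held 3 and each KO replicate 1. Over all genes with an annotated start these shares were 3.98%, 3.34%, 4.86%, and 1.18% and 3.31% for KO replicates 1 and 2.

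Calls of mark differences depended on the window and the threshold. Within 1000 bp no gene was called (0 for H3K4me2 longer, 0 for H3K27ac in either direction), and the H3K4me2 difference changed sign at Ift172 (-96 bp) and Bbs10 (-3 bp). Within 10000 bp, 2 genes had shorter H3K4me2 (all marked genes 8.93%), 3 longer (16.5%) and 3 shorter (18.6%) H3K27ac, and Ift20 fell to 320 bp of H3K4me2. With peaks required to reach a −log10 q-value of 5, 1 gene had longer (12.3%) and 1 shorter (6.74%) H3K4me2, and 3 had longer H3K27ac (16.4%); Ift20 at 922 bp and Bbs10 at 233 bp of H3K4me2 were no longer called. A difference of 500 bp gave 5 longer (27.1%) and 4 shorter (14.3%) for H3K4me2 and 5 (25.8%) and 5 (23.3%) for H3K27ac, and one of 2000 bp gave 0 for H3K4me2 longer and 0 in both directions for H3K27ac. Depth is unknown, so the lists cannot show whether a missing peak is weak or absent.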
